A study of Mus musculus with 46 samples.

Results

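The endothelial and angiogenesis genes described here are 35 genes that mark the cells lining blood and lymphatic vessels, measured by bulk RNA-seq in 46 mouse synovial sarcomas. The list was set by gene name, with earlier results of these data known. All 35 were present in both count tables, which held 56980 genes for 37 tumors and 56941 genes for 9 tumors. It comprises 10 junction and surface proteins (Pecam1, Cdh5, Esam, Icam2, Cldn5, Emcn, Plvap, Ptprb, Eng and Robo4), 7 receptors (Kdr, Flt1, Tek, Tie1, Aplnr, S1pr1 and Ramp2), 5 other effectors (the secreted Vwf, Egfl7 and Mmrn2, the enzyme Nos3 and the surface protein Ecscr) and 4 transcription factors (Erg, Fli1, Sox7 and Sox18). It also holds 4 genes of sprouting tip cells (Esm1, Angpt2, Apln and Dll4), 3 of arterial endothelium (Sox17, Dll4 and Nos3) and 4 of lymphatic endothelium (Lyve1, Prox1, Pdpn and Flt4), with Dll4 and Nos3 counted under 2 headings.

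In human synovial sarcoma a chromosomal translocation fuses SS18, a component of BAF complexes, which move nucleosomes, with an SSX gene. The study crossed mice carrying the fusion with mice carrying conditional alleles of BAF subunits, to ask how tumors develop when the canonical complex (Arid1a, Arid1b) or the polybromo complex (Pbrm1) is disrupted. Tumors expressing SS18::SSX2 from the Rosa26 locus (hSS2, labelled SSM2) came as 13 control tumors with no floxed subunit, 8 Pbrm1-fl, 8 Arid1a-fl and 8 Arid1b-fl tumors, and tumors expressing SS18::SSX1 (hSS1) as 5 control and 4 Pbrm1-fl tumors, each floxed allele being homozygous and the controls littermates. Every group carried a fusion, so the set holds no normal tissue.

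The fusion and the loss of the floxed alleles were both started by injecting a cell-permeable Cre protein, TATCre, into a limb in early postnatal life, in mice of both sexes on a mixed C57Bl/6 and SvJ background. No cell-type promoter restricted the recombination, and whether the endothelial cells of a tumor carried the recombined alleles was not measured here. In bulk RNA, fewer endothelial cells and less RNA per endothelial cell cannot be told apart.

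Blood vessels grow when VEGF, sensed by the receptor Kdr on endothelial cells, drives a leading tip cell out of an existing vessel. The tip cell shows Dll4 to its neighbors, whose Notch receptors hold them back as stalk cells, while Flt1 binds VEGF as a decoy. Angpt2 loosens vessels by acting on the receptor Tek, Cdh5 and Cldn5 seal the junctions between endothelial cells, and Prox1 directs the lymphatic fate in lymphatic vessels.

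Depth was 10137668 to 21294657 counted reads per tumor. Levels are given in counts-per-million (CPM), or as CPM per kilobase of exon (RPKM) where genes are compared with each other. Pbrm1 was at 94.1 to 134 CPM in the hSS2 Pbrm1-fl tumors against 180 to 324 CPM in hSS2 controls, and at 98.2 to 253 CPM against 278 to 356 CPM in hSS1. Arid1a was at 239 to 287 CPM in Arid1a-fl tumors against 254 to 593 CPM in controls, and Arid1b at 110 to 348 CPM in Arid1b-fl tumors against 230 to 678 CPM, so these 2 pairs of ranges overlapped. One library stood apart: hSS2 Arid1b-fl replicate 5 held 1271 CPM of 7 summed megakaryocyte and platelet genes, against at most 22.7 CPM in every other hSS2 tumor, and 32132 CPM of the globin genes Hba-a1 and Hbb-bs. It was also the tumor with the highest Vwf, Apln, Esm1 and Flt1 of all hSS2 tumors. In hSS2 Pbrm1-fl replicate 3 many of the vessel genes were at their group's lowest level. The exons of 8 of the 35 genes share bases with another gene, and reads there cannot be told apart where the strand setting of the counting is unknown, as here. The longest overlaps were those of Ramp2 with Vps25 (33.4% of its exonic bases), Nos3 with the antisense Gm15587 (25.2%) and Sox17 with Gm37587 (16.8%), and Dll4 shared 5.56% with Gm14207 and Prox1 1.59% with Prox1os.

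Transcripts of each listed blood endothelial gene were present in every tumor. The median level over the 46 tumors was highest for Cdh5, the adhesion protein of endothelial junctions, at 18.7 RPKM. Eng, a TGF-beta co-receptor, was at 16.9 RPKM, Plvap, the protein of endothelial pore diaphragms, at 14.7 RPKM and the ETS transcription factor Fli1 at 12.5 RPKM. Pecam1, the classical surface marker CD31, followed at 9.9 RPKM, Flt1 at 8.36 RPKM and the secreted Egfl7 at 7.93 RPKM. Eng, Fli1 and Flt1 did not rise and fall with Cdh5 in the hSS2 fit described below. Which cells held their transcripts was not measured. At the low end were Sox17, a transcription factor of arteries, at 0.975 RPKM, the surface protein Icam2 at 1.15 RPKM and the tip-cell proteoglycan Esm1 at 1.21 RPKM.

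The tip-cell genes Apln and Esm1 spread widely between tumors of 1 genotype. Apln, the peptide ligand of Aplnr, ranged from 5.28 to 131 CPM among the hSS2 control tumors alone, and Esm1 from 0.0677 to 6.82 CPM. Dll4 ranged from 7.76 to 57 CPM and Angpt2 from 2.78 to 18.8 CPM in the same 13 tumors. The arterial genes Sox17 and Nos3 ranged over fewer doublings, with Sox17 between 3.02 and 12 CPM and Nos3, the endothelial nitric oxide synthase, between 4.83 and 16.3 CPM.

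The lymphatic genes did not behave as one set. Prox1 was among the highest of all 35 genes at a median of 14.8 RPKM, and Pdpn, a surface glycoprotein of lymphatic and of several non-endothelial cells, was at 17.4 RPKM, whereas Flt4, the receptor for VEGF-C, was at 1.64 RPKM. Lyve1, a hyaluronan receptor of lymphatic endothelium that tissue macrophages also express, was at 0.185 RPKM and had no read in 10 of the 46 libraries. Ccl21a, another lymphatic gene, was at a median of 0.463 CPM in hSS2 controls and at 0 in all 4 hSS1 Pbrm1-fl tumors, while Reln, which lymphatic and other cells express, reached 500 to 3722 CPM in the hSS2 controls. Lyve1 was at most 5.22 CPM in any tumor, in a library with Prox1 at 103 CPM and Pdpn at 25.7 CPM, and the 4 genes are described one by one below rather than as a measure of lymphatic vessels.

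**Figure D1:**
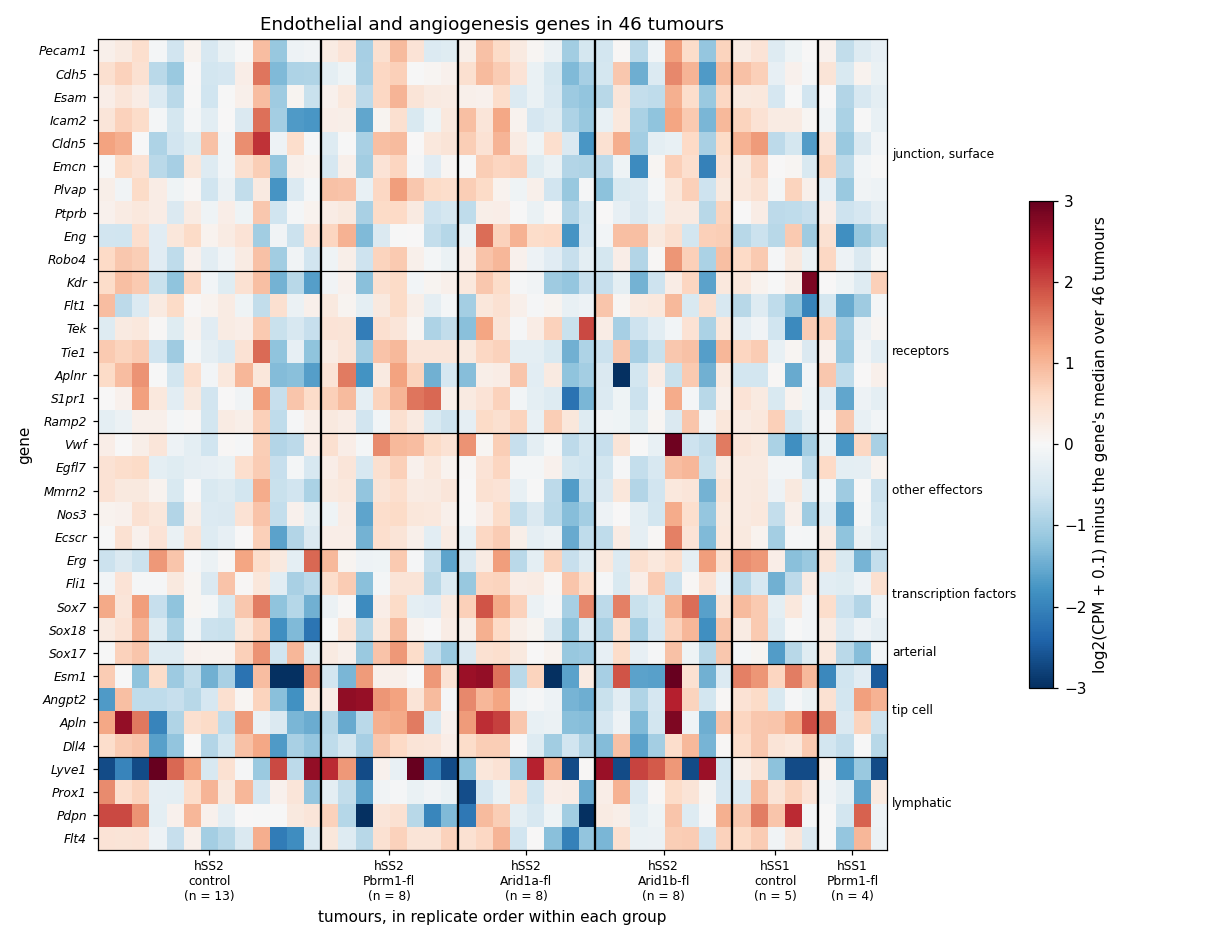
Each row is 1 of the 35 genes and each column 1 of the 46 tumors, ordered by replicate within its genotype group; color is log2(CPM + 0.1) minus the gene's median over the 46 tumors, cut at -3 and 3. Most blood vessel genes are high or low together within a tumor, as in hSS2 Pbrm1-fl replicate 3 (blue column), while Lyve1, Esm1 and Angpt2 vary more from tumor to tumor.

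Which of these genes rose and fell together was read from the slope of each gene on Cdh5 within the genotype groups of the 37 hSS2 tumors, that is the change in log2 level for each doubling of Cdh5. Of the other 34 genes, 25 passed the test (edgeR's quasi-likelihood test, adjusted p under 0.05 by Benjamini-Hochberg over all genes), and all 25 rose with Cdh5; 17.9% of all genes passed in either direction and 9.93% rose. The median slope was 0.60 over the 34 genes and 0.00 over all genes. Because the list was chosen with earlier results of these data known, these counts describe it and are no independent test. The same holds for the counts on Ttn below.

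Genes of the vessel wall followed Cdh5 most tightly. Tie1, an orphan receptor that partners Tek, had a slope of 0.91 (SE 0.05, adjusted p = 2.7e-15 by edgeR's quasi-likelihood test). Robo4, an endothelial guidance receptor, had 0.68 (SE 0.05), Esam, a junction protein, 0.64 (SE 0.05), and Kdr 0.81 (SE 0.07), with adjusted p of 4.7e-12, 1.7e-10 and 1.7e-10 in the same edgeR fit. Of all genes beside Cdh5 itself, the 5 with the smallest p were Cd93, Notch4, Tie1, Robo4 and Nos2, and 11 of the first 20 were among the 35. Cd93 and Notch4, both expressed by endothelium, had slopes of 0.90 and 1.06, and Nos2, the inducible nitric oxide synthase, 1.24.

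By subset, 8 of the 9 other junction and surface genes rose with Cdh5, as did 5 of 5 other effectors, 3 of 7 receptors, 2 of 4 transcription factors (Sox7 and Sox18), 4 of 4 tip-cell genes and 3 of 3 arterial genes. The tip-cell slopes were among the steepest, at 1.30 (SE 0.17) for Apln, 1.04 (SE 0.30) for Esm1 and 0.92 (SE 0.08) for Dll4, with 0.59 (SE 0.18) for Angpt2. The arterial genes Nos3 and Sox17 had slopes of 0.56 (SE 0.08) and 0.54 (SE 0.10). Among the lymphatic genes Flt4 (0.73, SE 0.10) and Pdpn (0.58, SE 0.20) passed, whereas Prox1 had 0.18 (SE 0.14) and Lyve1 -1.09 (SE 0.45), with adjusted p of 0.373 and 0.0872 in the edgeR fit.

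Several genes widely used as endothelial markers did not pass the test on Cdh5. The slope of Flt1 was -0.06 (SE 0.10), that of Fli1 -0.08 (SE 0.11), that of Erg, an ETS factor of endothelial identity, -0.16 (SE 0.14), and that of Eng 0.04 (SE 0.15), with adjusted p from 0.454 to 0.873 in the edgeR fit. Tek (0.22, SE 0.14), Ramp2, a subunit of the adrenomedullin receptor (0.15, SE 0.08), and Aplnr (0.52, SE 0.20) did not pass either, at adjusted p of 0.261, 0.184 and 0.0628. The ratio of Flt1 to Cdh5 CPM ran from 0.284 to 5.02 in hSS2 controls, against 0.255 to 0.662 for Kdr and 0.232 to 0.46 for Tie1. Median levels were 16.9, 12.5, 8.36 and 6.01 RPKM for Eng, Fli1, Flt1 and Erg. Those of Aplnr, Tek and Ramp2 were 4.5, 2.73 and 2.28 RPKM. Whether level played a part in these slopes was not tested.

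**Figure D2:**
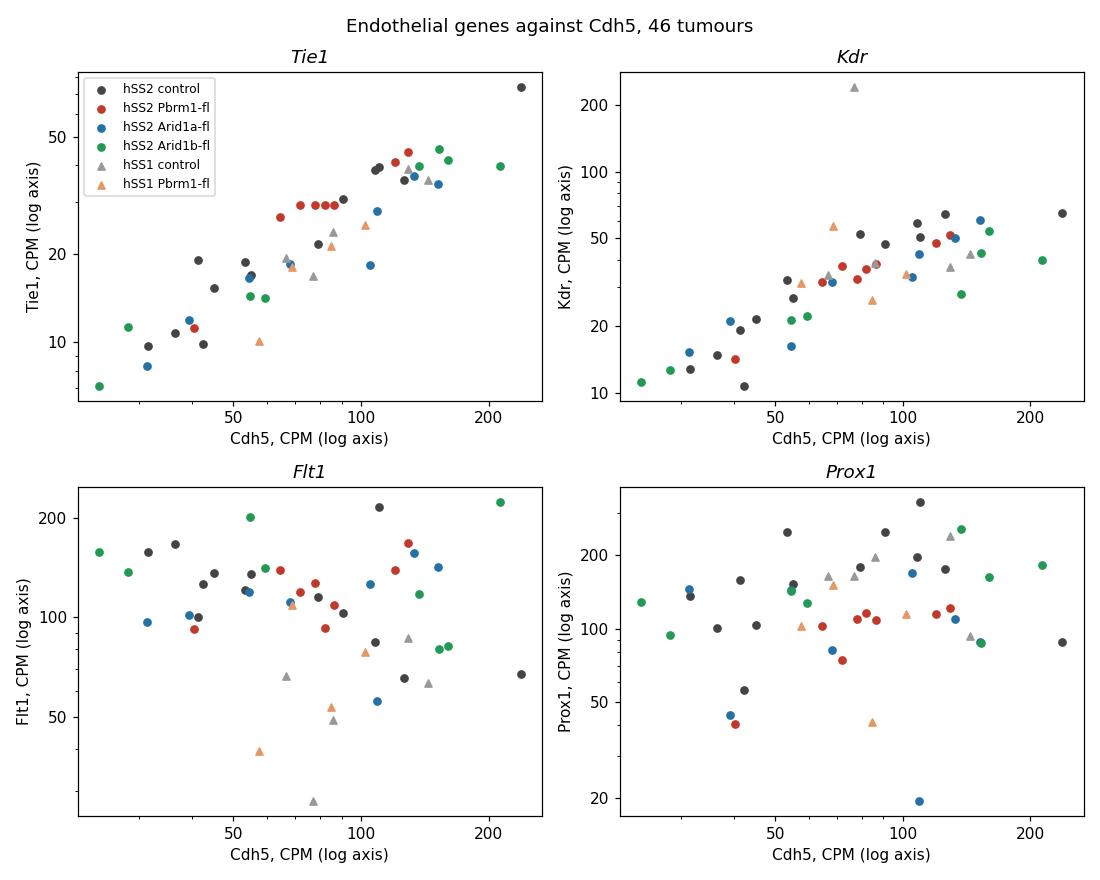
CPM of Tie1, Kdr, Flt1 and Prox1 (log axes) against CPM of Cdh5 in 46 tumors, 1 point per tumor, colored by genotype group, with circles for hSS2 and triangles for hSS1. Tie1 and Kdr climb with Cdh5, with 1 hSS1 control at 242 CPM of Kdr above the rest, while the slopes of Flt1 and Prox1 in hSS2 were -0.06 and 0.18 and did not pass the test.

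Genes of other cell types moved with Cdh5 in the same hSS2 fit, where 17.9% of all genes passed and 9.93% rose. All 8 skeletal muscle genes fell with it (median slope -3.14, Ttn -3.27), and their sum ran from 15.1 to 85944 CPM in the controls, 14.1 to 35291 CPM in Pbrm1-fl, 11.2 to 24104 CPM in Arid1a-fl and 8.68 to 81985 CPM in Arid1b-fl tumors. Both globin genes and 1 of 4 tested platelet genes (Itgb3) rose with Cdh5, and of 8 pericyte and smooth muscle genes Rgs5 and Kcnj8 rose (slopes 0.53 and 0.46). With Ttn as a further term, 23 of the 25 genes still rose with Cdh5, where 268 of all 20083 genes passed and 245 rose. Without Arid1b-fl replicate 5, a choice made after seeing the data, 25 genes passed, 23 of them in common, with Lyve1 among them at a slope below 0. The share of all genes in that last fit is not given here. With Ttn in the fit the slopes of Lyve1, Flt1, Fli1 and Erg were above 0, at 0.48, 0.14, 0.12 and 0.05, with adjusted p from 0.541 to 0.915.

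Other genes of vessel subtypes gave a mixed picture on Cdh5, where 17.9% of all genes passed and 9.93% rose. Of 8 further arterial genes Notch4 and the gap junction gene Gja4 (0.68) rose with Cdh5, and of 3 further tip-cell genes Cxcr4 (0.94) and Pdgfb (0.35) did. Of 7 genes of muscle capillaries, Gpihbp1 (1.197) and Tcf15 (0.78) rose and Meox2 fell by 0.61 per doubling. Of 4 venous genes Ackr1 fell by 1.0, of 4 further lymphatic genes Ccl21a fell by 1.90, and of 8 tested VEGF and angiopoietin ligands and co-receptors Vegfd fell by 0.89 per doubling.

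In the 9 hSS1 tumors no gene of 17785 passed the same test on Cdh5 (0% of all genes), and none of the 33 members tested did. Their slopes still leaned one way: 29 of 33 were positive, with a median of 0.72 against -0.01 over all genes, and 15 of 33 had an unadjusted p under 0.05 (edgeR's quasi-likelihood test) against 2.4% of all genes. Of the 25 genes that rose with Cdh5 in hSS2, 24 had a positive slope in hSS1. The smallest p among positive slopes were those of Tie1 (1.16, SE 0.24), Ptprb (0.88), Cldn5 (2.05, SE 0.51) and Pecam1 (0.68), none past the test. Of all genes the smallest p were those of Gpihbp1, Clybl, Frmpd3, Trim30d and Tie1. The 4 negative slopes were those of Kdr (-1.12), Ramp2 (-0.41), Prox1 (-0.33) and Fli1 (-0.09). For Kdr, hSS1 control 5 stood apart at 242 CPM, with Cdh5 at 76.9 CPM, against 34 to 42.5 CPM of Kdr in the other hSS1 controls. A slope without that tumor was not fitted.

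Promoters of genes whose slopes on Cdh5 passed the test and of genes whose slopes did not are shown for comparison, with the ETS motifs that Erg and Fli1 bind. A promoter from RefSeq (GRCm38.p6), from 250 bases before to 50 bases after the start site, was found for 16 of the 35 genes. The ETS motifs AGGAAG and CGGAAG, the only forms searched, are in capitals on both strands (CTTCCT and CTTCCG where on the other strand). Emcn (endomucin, a venous and capillary sialomucin) and Dll4 had slopes of 0.71 and 0.92 that passed, whereas those of Flt1 and Eng did not. They lie at chr3:137340828-137341127 (plus strand), chr2:119325534-119325833 (plus), chr5:147725962-147726261 (minus) and chr2:32646345-32646644 (plus).
Emcn: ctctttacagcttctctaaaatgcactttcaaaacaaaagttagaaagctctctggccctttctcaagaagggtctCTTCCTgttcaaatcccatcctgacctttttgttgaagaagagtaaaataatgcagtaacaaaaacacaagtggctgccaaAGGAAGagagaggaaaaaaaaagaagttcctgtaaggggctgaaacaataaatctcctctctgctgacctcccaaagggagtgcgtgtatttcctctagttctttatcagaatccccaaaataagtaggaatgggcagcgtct
Dll4: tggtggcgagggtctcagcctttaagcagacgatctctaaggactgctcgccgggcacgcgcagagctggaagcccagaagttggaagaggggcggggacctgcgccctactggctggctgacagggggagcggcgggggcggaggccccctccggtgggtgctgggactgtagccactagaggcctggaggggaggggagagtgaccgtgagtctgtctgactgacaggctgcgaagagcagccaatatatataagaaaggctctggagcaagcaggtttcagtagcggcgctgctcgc
Flt1: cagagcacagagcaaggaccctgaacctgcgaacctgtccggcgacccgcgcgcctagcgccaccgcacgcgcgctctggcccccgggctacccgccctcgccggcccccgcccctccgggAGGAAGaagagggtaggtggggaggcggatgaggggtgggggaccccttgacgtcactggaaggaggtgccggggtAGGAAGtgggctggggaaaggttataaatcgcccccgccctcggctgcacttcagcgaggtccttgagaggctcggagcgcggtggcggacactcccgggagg
Eng: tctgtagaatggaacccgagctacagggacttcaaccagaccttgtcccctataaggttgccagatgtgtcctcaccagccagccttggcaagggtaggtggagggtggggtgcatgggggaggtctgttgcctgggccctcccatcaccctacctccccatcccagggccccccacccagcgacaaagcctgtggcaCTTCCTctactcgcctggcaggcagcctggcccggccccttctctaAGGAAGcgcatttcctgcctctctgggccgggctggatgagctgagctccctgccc
Emcn, Flt1 and Eng each held 2 matches to these motifs and Dll4 none. The shorter GGAA inside both motifs was not searched and stands unmarked in the Dll4 promoter. Over all matched members, 9 of 21 promoters (42.9%), from 8 of the 16 genes, held a match, against 46.5% of 32851 promoters of the same length.

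Muscle content split the hSS2 tumors into 2 clusters. Ttn, which encodes the giant sarcomere protein titin, was at 4.83 to 562 CPM in 18 tumors (5 control, 5 Pbrm1-fl, 4 Arid1a-fl and 4 Arid1b-fl) and at 2710 to 47300 CPM in the other 19 (8, 3, 4 and 4), with no tumor between. Among the hSS1 tumors Ttn reached 3831 and 584 CPM in controls 2 and 3 and was at most 110 CPM in the other 7.

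Dll4 was at 12.7, 37.6 and 57 CPM (lowest, median and highest) in the tumors low in Ttn and at 7.76, 12.9 and 42.3 CPM in those high in Ttn. Cdh5 was at 31.3, 115 and 238 CPM against 24.1, 54.4 and 152 CPM, and Tie1 at 8.31, 37.8 and 74.1 CPM against 7.12, 16.6 and 34.7 CPM. The median of each of these 3 genes was lower in the muscle-rich cluster, with overlapping ranges. Lyve1 went the other way, at 0, 0.117 and 1.47 CPM in tumors low in Ttn, with 7 of 18 at 0, and at 0.271, 2.2 and 5.22 CPM in the 19 muscle-rich tumors, none of which was at 0. Flt1 was at 56.1, 100 and 223 CPM against 100, 135 and 201 CPM, so that all muscle-rich tumors were at or above the median of the others.

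Over all 37 hSS2 tumors, 15 of the 35 genes passed the test of the slope on Ttn (28.8% of all genes did, by edgeR's quasi-likelihood test). Lyve1 rose by 0.38 per doubling of Ttn (SE 0.05, adjusted p = 1.7e-06) and Flt1 by 0.05 (SE 0.02, adjusted p = 0.03), against 14.2% of all genes that rose, while 13 genes fell, against 14.6% of all genes. Dll4 fell by 0.13 (SE 0.02, adjusted p = 3.6e-05), Cdh5 by 0.11 (SE 0.02), Tie1 by 0.10 (SE 0.02) and the tight junction gene Cldn5 by 0.09 (SE 0.02), with adjusted p of 8.2e-04, 0.00136 and 0.00307 in the edgeR fit. By comparison, the 5 genes of all with the smallest p on Ttn were the muscle genes Myom2, Trdn, Acta1, Mypn and Myl1, with slopes of 0.91 to 1.01. The other endothelial genes that fell were Egfl7, Sox7, Esam, Sox18, Icam2, Robo4, Kdr, Emcn and Flt4. Of the tip-cell genes only Dll4 passed, with -0.11 for both Apln and Esm1 and -0.06 for Angpt2, and of the arterial genes only Dll4, with -0.04 for both Nos3 and Sox17.

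Within the clusters few of these slopes passed. Within the 18 tumors low in Ttn, 0 of 34 genes tested passed by edgeR's quasi-likelihood test, 1 of them with an unadjusted p under 0.05, and 0.175% of all genes passed. Within the 19 muscle-rich tumors Lyve1 passed (0.67, SE 0.19, adjusted p = 0.0475) and no other of the 35 genes did, against 5.28% of all genes. The slope of Dll4 was -0.02 (SE 0.05) within the low cluster and -0.17 (SE 0.11) within the high one, and that of Flt1 0.12 and 0.14, none of them past the test. The boundary of 1000 CPM was set after the clusters were seen.

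**Figure D3:**
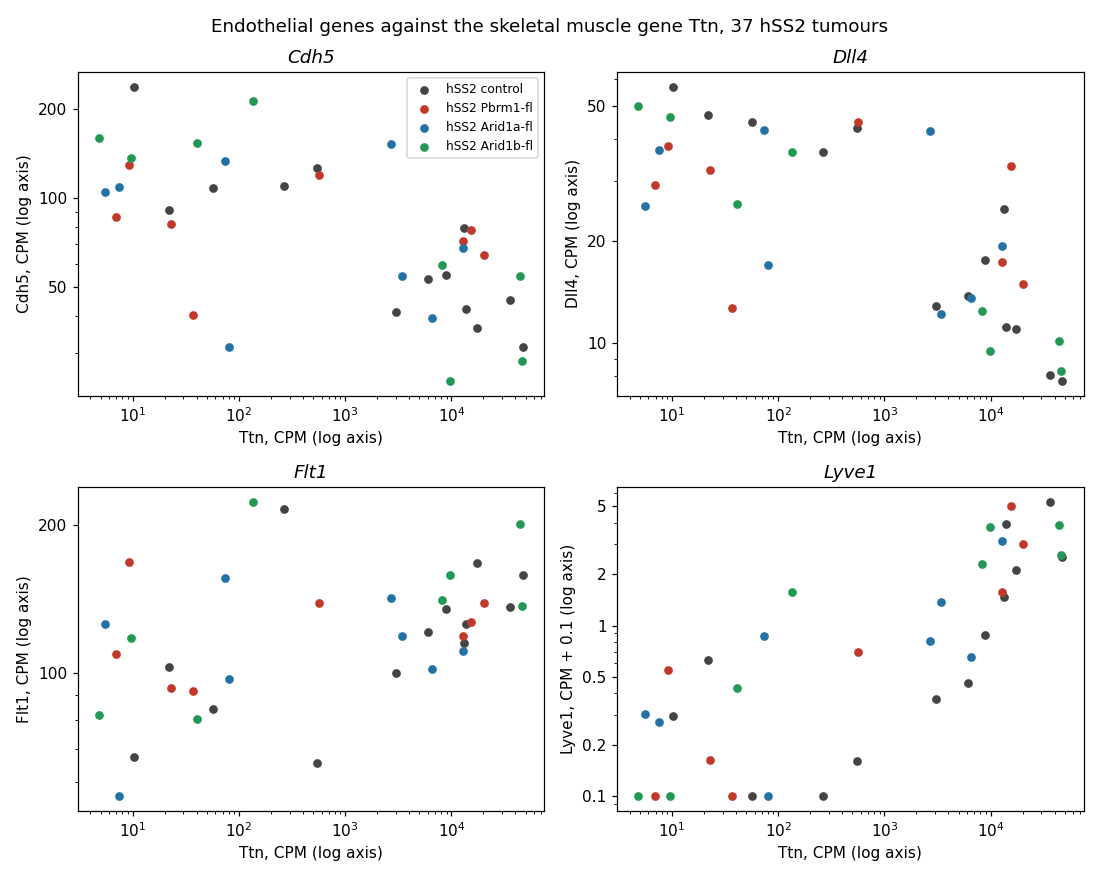
CPM of Cdh5, Dll4, Flt1 and CPM + 0.1 of Lyve1 (log axes) against CPM of Ttn (log axis) in the 37 hSS2 tumors, 1 point per tumor, colored by genotype group. The tumors form 2 clusters, at 4.83 to 562 and 2710 to 47300 CPM of Ttn; Cdh5 and Dll4 are lower and Lyve1 higher in the right-hand cluster.

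With Cdh5 as a further term, which compares the genes at a given Cdh5 level, 9 of the 35 genes passed on Ttn (13.3% of all genes, edgeR's quasi-likelihood test), 3 of them in common with the 15. Lyve1 (0.44), Tek (0.10), Eng (0.09), Flt1 (0.06), Ecscr (0.06), the endothelial phosphatase Ptprb (0.06), Pecam1 (0.05) and the matrix protein Mmrn2 (0.04) rose and Dll4 fell by 0.05 per doubling. Of the 12 genes other than Cdh5 that fell with Ttn, only Dll4 still passed in that fit; the other 11 did not, and 8 of them had slopes above 0, from 0.00 (Tie1) to 0.02 (Flt4), with Kdr, Robo4, Icam2, Esam, Emcn and Sox18 between.

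Genes outside the list moved with Ttn as well in hSS2, where 28.8% of all genes passed, 14.2% rising and 14.6% falling. Of 8 pericyte and smooth muscle genes 2 passed, 1 rising and 1 falling. Of 7 muscle capillary genes Fabp4 (0.28), Cd36 (0.22), Meox2 (0.18) and Rgcc (0.12) rose and Gpihbp1 fell by 0.17; of 4 venous genes Ackr1 (0.29), Selp (0.20) and Nr2f2 (0.06) rose and Ephb4 fell by 0.03. Of 4 further lymphatic genes Ccl21a (0.70) and Mmrn1 (0.37) rose, of 8 further arterial genes Hey1, Gja4, Unc5b and Notch4 fell by 0.05 to 0.12, and of 8 tested VEGF and angiopoietin genes Vegfd (0.18) and Angpt1 (0.09) rose. All 3 adipocyte genes, 5 of 6 macrophage genes and 2 of 2 tested leukocyte genes rose too, with median slopes of 0.53, 0.13 and 0.26, and their part in the endothelial slopes, that of Lyve1 included, was not tested. In hSS1 none of 34 genes passed on Ttn (0.0169% of all genes), where only Flt1 had an unadjusted p under 0.05 (slope 0.10, SE 0.04, p = 0.0461 in the edgeR fit). Next came Prox1 (0.09), Emcn (0.04) and Ramp2 (0.04) among positive slopes, and Apln (-0.09), Kdr (-0.13), Esm1 (-0.07) and Ecscr (-0.03) among negative ones, while the 5 genes of all with the smallest p were Acta1, Des, Neb, Ldb3 and Mylpf.

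**Figure D4:**
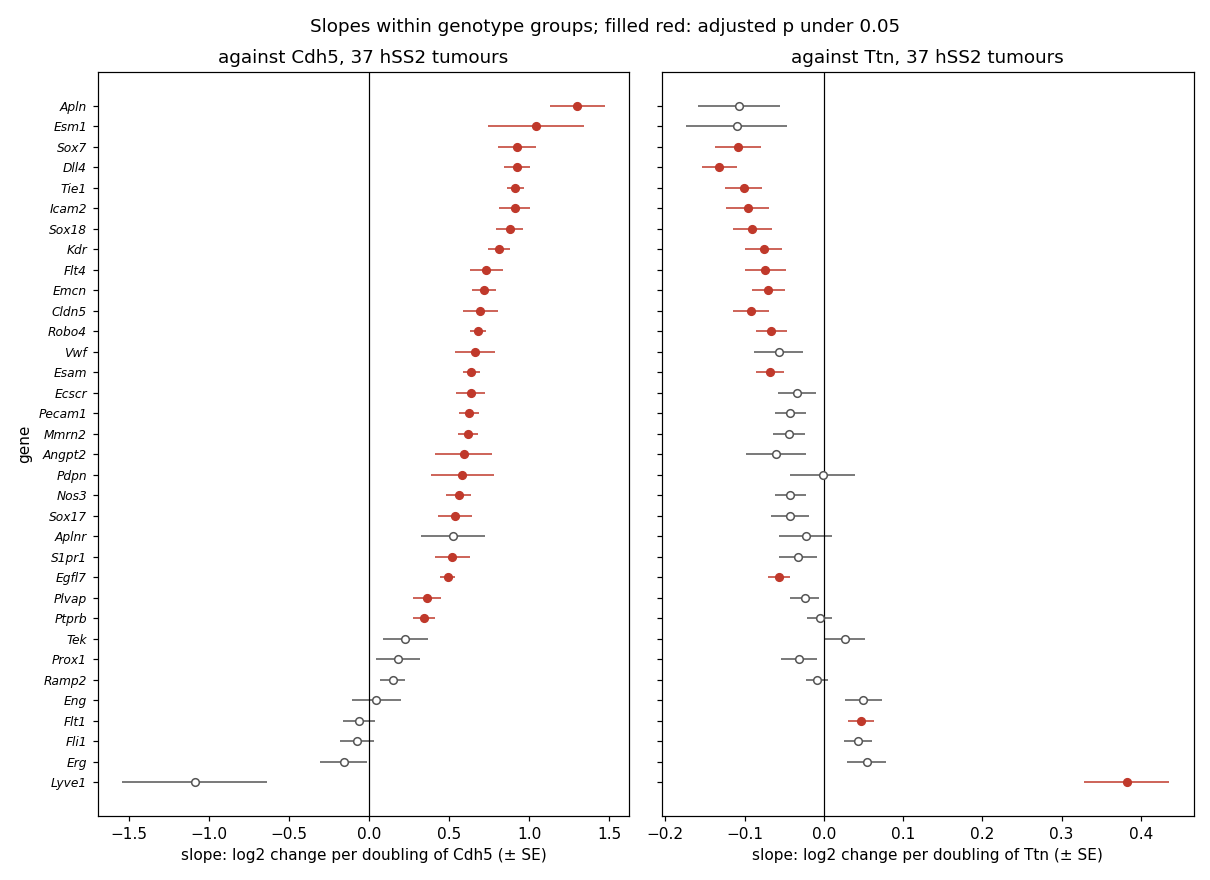
Slope of each gene within genotype groups of the 37 hSS2 tumors, in log2 change per doubling of Cdh5 (left) and of Ttn (right), with bars of 1 SE. Both panels show the same 34 genes, without Cdh5. Filled red points passed at an adjusted p under 0.05. On the left 25 genes lie above 0 and pass; on the right Lyve1 at 0.38 stands apart from the rest, which lie between -0.13 and 0.05.

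In hSS2 tumors with Pbrm1 floxed, Angpt2 and Plvap rose, and no other of the 35 genes passed the test, against 7.35% of all genes in either direction and 3.4% that rose (edgeR's quasi-likelihood test). The median log2 difference between Pbrm1-fl and control tumors was 0.04 over the 35 genes and -0.00 over all genes.

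Angpt2 (Ensembl ENSMUSG00000031465, chr8:18690263-18741562, mm10) was at 2.78, 6.14 and 18.8 CPM (lowest, median and highest) in the 13 hSS2 controls and at 9.76, 21.3 and 63.5 CPM in the 8 Pbrm1-fl tumors. All 8 Pbrm1-fl tumors were above the control median and 5 above every control. The log2 difference was 1.71 (SE 0.44), with an adjusted p of 0.0146 by edgeR's quasi-likelihood test. Replicates 2 and 3, at 63.5 and 62.2 CPM, held the most Angpt2. Replicate 3 had the lowest Kdr and Tie1 of its group, at 14.3 and 11.2 CPM, and its ratio of Angpt2 to Cdh5 was 1.54 against 0.0275 to 0.301 in controls. Without either of the 2 the adjusted p was over 0.05, at most 0.0538, with log2 differences no lower than 1.42.

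Plvap (ENSMUSG00000034845, chr8:71497765-71511752) was at 8.53, 26.9 and 43.4 CPM in controls and at 24.8, 47.8 and 70.1 CPM in Pbrm1-fl tumors. Here 7 of 8 Pbrm1-fl tumors were above the control median and 6 above every control, while replicate 3 at 24.8 CPM was below it. The log2 difference was 0.82 (SE 0.22, adjusted p = 0.0213 by edgeR's quasi-likelihood test), and leaving out replicate 5, at 70.1 CPM, took the adjusted p to 0.0529.

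Neither call was made against a smaller set of controls. The 8 Pbrm1-fl mice all had high mouse numbers, as had 4 of the 13 controls. Against those 4 the log2 difference of Angpt2 was 1.77 (adjusted p = 0.227 by edgeR) and that of Plvap 0.46 (adjusted p = 0.546). In that fit 446 of all 20817 genes passed. Whether the number range marks a batch was not tested.

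The other tip-cell genes did not pass. Dll4 was at 7.76, 17.6 and 57 CPM in controls and at 12.7, 30.8 and 44.7 CPM in Pbrm1-fl tumors (log2 difference 0.12, SE 0.38), Esm1 at 0.0677, 1.24 and 6.82 CPM against 0.911, 2.82 and 6.38 CPM (0.56, SE 0.72), and Apln at 5.28, 18.4 and 131 CPM against 7.23, 19 and 61.5 CPM (-0.26, SE 0.59). For all 3 the Pbrm1-fl range lay inside that of the controls. Their adjusted p ran from 0.686 to 0.89 in the edgeR fit.

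Nor did the arterial and lymphatic genes. Sox17 was at 3.02, 5.04 and 12 CPM against 2.1, 5.42 and 11.7 CPM, and Nos3 at 4.83, 9.79 and 16.3 CPM against 2.92, 10.8 and 13.4 CPM, with differences of -0.11 and 0.08. Prox1 was at 55.7, 159 and 332 CPM in controls and 40.5, 108 and 121 CPM in Pbrm1-fl tumors, all 8 of which were below the control median (-0.78, SE 0.30, adjusted p = 0.102 by edgeR). Pdpn was at 25.7, 34.5 and 125 CPM against 0.62, 17.6 and 51.5 CPM, with 5 of 8 Pbrm1-fl tumors below every control (-1.15, SE 0.48, adjusted p = 0.142). Flt4 (0.43) and Lyve1 (-0.08) had adjusted p of 0.485 and 0.971, and the 4 lymphatic genes had a median difference of -0.43 against 0.34 for the 4 tip-cell genes.

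Among the other angiogenic genes, 2 of 8 tested VEGF and angiopoietin ligands and co-receptors rose in hSS2 Pbrm1-fl tumors. Nrp2, the neuropilin that binds VEGF-C and semaphorins, was at 193, 333 and 734 CPM in controls and 557, 619 and 1076 CPM in Pbrm1-fl tumors (log2 difference 0.97, SE 0.18, adjusted p = 0.00105 by edgeR's quasi-likelihood test). Pgf, placental growth factor, was at 0.61, 2.23 and 4.65 CPM against 1.28, 6.08 and 41.8 CPM (1.96, SE 0.56, adjusted p = 0.0253), with the highest value in replicate 3. Of 8 arterial genes Efnb2, the ephrin ligand of arteries and of other tissues, rose (0.95, SE 0.23, adjusted p = 0.00787), from 96.1, 129 and 221 CPM to 203, 249 and 597 CPM.

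Car4, a carbonic anhydrase of muscle capillaries, fell (-2.64, SE 0.65, adjusted p = 0.00995), as 1 of 7 muscle capillary genes, and Cspg4, the pericyte proteoglycan NG2, fell (-0.72, SE 0.18, adjusted p = 0.0131) as 1 of 8 pericyte and smooth muscle genes. None of the 3 further tip-cell, 4 venous or 4 further lymphatic genes passed. The 8 skeletal muscle genes all had lower estimates in Pbrm1-fl tumors, with a median of -0.88 and none past the test, and with Ttn as a term the differences of Angpt2 and Plvap were 1.62 and 0.78 (adjusted p = 0.0169 and 0.0264 by edgeR).

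**Figure D5:**
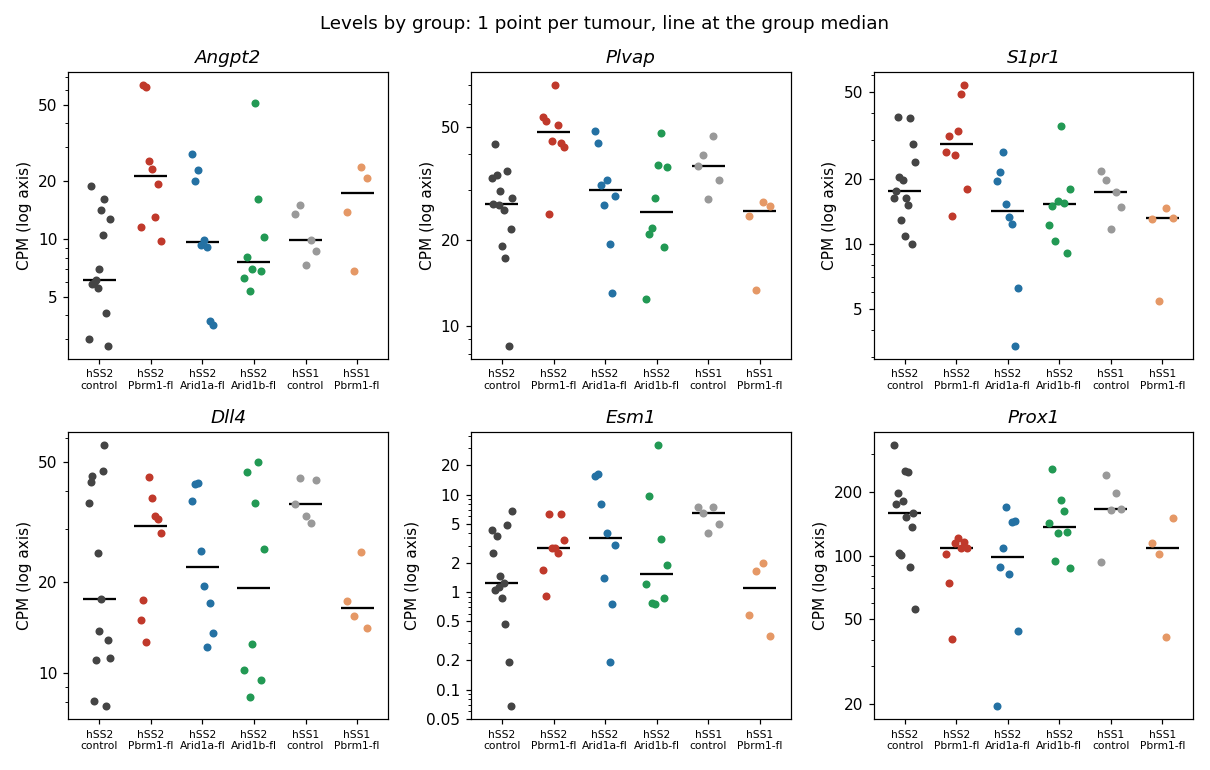
CPM (log axis) of Angpt2, Plvap, S1pr1, Dll4, Esm1 and Prox1 by genotype group, 1 point per tumor with a line at the group median. Angpt2 and Plvap are higher in hSS2 Pbrm1-fl than in hSS2 control tumors (medians 21.3 against 6.14 CPM and 47.8 against 26.9 CPM). In hSS1 the medians of Dll4, Esm1 and Plvap were 16.4, 1.11 and 25.3 CPM in 4 Pbrm1-fl tumors. They were 36.4, 6.52 and 36.3 CPM in 5 controls, and none of the 3 differences passed the edgeR test.

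With Arid1a floxed, none of the 35 genes passed against hSS2 controls, where 3.17% of all genes did (edgeR's quasi-likelihood test), and 2 of the 35 had an unadjusted p under 0.05. Prox1 was at 19.5, 98.4 and 170 CPM in Arid1a-fl tumors against 55.7, 159 and 332 CPM in controls (log2 difference -0.78, SE 0.30, adjusted p = 0.116), with 7 of 8 below the control median. Pdpn was at 3.86, 24.2 and 61.4 CPM against 25.7, 34.5 and 125 CPM (-1.0, SE 0.48, adjusted p = 0.204), and 4 of 8 were below every control. Esm1 was at 0.19, 3.57 and 16.3 CPM against 0.0677, 1.24 and 6.82 CPM (1.41, SE 0.71, adjusted p = 0.223), with 3 of 8 above every control and 2 below the control median.

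Angpt2 in Arid1a-fl tumors was at 3.55, 9.6 and 27.6 CPM (0.58, SE 0.45), Apln at 8.59, 27.6 and 97.9 CPM (0.29, SE 0.58) and Dll4 at 12.2, 22.4 and 42.6 CPM (0.01, SE 0.38). The tip-cell genes had a median difference of 0.43, the arterial genes -0.42 and the lymphatic genes -0.77, beside -0.04 over all genes. Nos3 (3.67, 6.06 and 13.3 CPM) and Sox17 (2.08, 4.85 and 6.64 CPM) were at -0.42 and -0.44, Flt4 (3.26, 11.3 and 27.3 CPM) at 0.06 and Lyve1 (0, 0.632 and 3.05 CPM) at -0.75. None of these passed, and none of the other vessel genes listed did.

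With Arid1b floxed, none of the 35 genes passed either, against 0.0548% of all genes (edgeR's quasi-likelihood test), and 2 had an unadjusted p under 0.05. Those were Vwf, the clotting factor stored by endothelium and platelets, and Esm1. Vwf was at 36.8, 56.9 and 467 CPM in Arid1b-fl tumors against 33.8, 62.9 and 103 CPM in controls (log2 difference 1.05, SE 0.36, adjusted p = 0.636). The value of 467 CPM was that of replicate 5, and without it the difference was 0.22. Esm1 was at 0.756, 1.55 and 32.3 CPM (1.59, SE 0.71, adjusted p = 0.768), again highest in replicate 5, without which the difference was 0.26.

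Eng, the third by p, was at 46.8, 104 and 128 CPM in Arid1b-fl tumors against 33.4, 74 and 102 CPM in controls (0.52, SE 0.30, adjusted p = 0.805 by edgeR). Angpt2 (5.34, 7.55 and 50.9 CPM), Apln (7.55, 16.9 and 147 CPM) and Dll4 (8.3, 19.2 and 50.1 CPM) differed by 0.76, 0.14 and 0.01. Sox17 (2.59, 4.38 and 8.68 CPM) and Nos3 (3.96, 8.6 and 19.7 CPM) differed by -0.08 and 0.13. Of the lymphatic genes Prox1 (87.3, 136 and 257 CPM), Pdpn (24.3, 33.3 and 66.7 CPM), Flt4 (5.13, 15.4 and 22.9 CPM) and Lyve1 (0, 1.83 and 3.78 CPM) differed by -0.12, -0.39, 0.40 and 0.43. Of the listed genes outside the 35, the platelet genes Itgb3 and Gp1ba rose (4.37 and 4.19), with Itgb3 at 400 CPM in replicate 5 and at a median of 3.15 CPM.

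Between floxed groups, S1pr1, the sphingosine-1-phosphate receptor that stabilizes vessels, was the 1 gene of 35 that differed between hSS2 Pbrm1-fl and Arid1a-fl tumors, where 12.3% of all genes did (edgeR's quasi-likelihood test). It was at 13.4, 29 and 54.1 CPM in Pbrm1-fl and at 3.39, 14.2 and 26.4 CPM in Arid1a-fl tumors. Of the 8 Pbrm1-fl tumors 7 were above the Arid1a-fl median and 5 above every Arid1a-fl tumor, and the log2 difference was 1.12 (SE 0.34, adjusted p = 0.0264). The call was lost without Pbrm1-fl replicate 6 or 7 or Arid1a-fl replicate 8, at an adjusted p of up to 0.0687. The Pbrm1-fl mice all had high and the Arid1a-fl mice all low mouse numbers, and with the number range as a term S1pr1 did not pass (adjusted p = 0.253 by edgeR). Plvap (0.67, SE 0.26) and Angpt2 (1.13, SE 0.51) followed at adjusted p of 0.0784 and 0.144.

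Of the further vessel genes, Efnb2 (1.24), Nrp1 (0.64) and Nrp2 (0.77) were higher in Pbrm1-fl than in Arid1a-fl tumors and Cspg4 lower (-0.93), with adjusted p from 0.00176 to 0.0228 by edgeR. Their counts were 1 of 8 further arterial genes, 2 of 8 tested VEGF and angiopoietin genes and 1 of 8 pericyte and smooth muscle genes. The T-cell gene Cd3e was higher as well (3.35, adjusted p = 0.0341), as 1 of 2 tested leukocyte genes.

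No member passed between Pbrm1-fl and Arid1b-fl tumors (4.37% of all genes passed by edgeR's quasi-likelihood test; 3 members had an unadjusted p under 0.05), where Plvap (0.72, SE 0.26), S1pr1 (0.86, SE 0.34) and Prox1 (-0.67, SE 0.32) came closest at adjusted p of 0.1, 0.151 and 0.267. Without Arid1b-fl replicate 5, 2 members passed, 1 of them S1pr1 (1.15, adjusted p = 0.046 by edgeR). The share of all genes in that fit is not given here. Cspg4 was lower in Pbrm1-fl (-0.94), and the 4 tested platelet and 2 globin genes were lower too, which replicate 5 held in excess. Between Arid1a-fl and Arid1b-fl tumors no member passed (0.0996% of all genes; 2 members had an unadjusted p under 0.05), with Vwf (-0.93), Prox1 (-0.67) and Tek (0.67) the closest at adjusted p of 0.36 to 0.416.

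In hSS1 tumors most vessel genes had lower estimates with Pbrm1 floxed, without passing the test. None of 34 genes tested passed by edgeR's quasi-likelihood test (0.00562% of all genes, that is 1 gene, did), and 4 had an unadjusted p under 0.05. Over all genes, 3059 of 17786 had an unadjusted p under 0.05 in the same edgeR test. How many of all genes separated controls from Pbrm1-fl tumors without overlap was not counted, so the separations given below are not read as particular to these genes. Of the 34 estimates 24 were below 0, with a median of -0.34 against 0.01 over all genes.

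Dll4 was at 36.4, 44.2, 33.2, 31.5 and 43.8 CPM in hSS1 controls 1 to 5 and at 17.3, 15.5, 25.2 and 14.1 CPM in hSS1 Pbrm1-fl tumors 1 to 4. Every Pbrm1-fl tumor was below every control, and the log2 difference was -1.07 (SE 0.22, adjusted p = 0.113 by edgeR). Esm1 was at 7.4, 6.52, 4, 7.5 and 5.04 CPM in the controls and at 0.585, 1.63, 1.97 and 0.357 CPM in the Pbrm1-fl tumors. These groups did not overlap either, at -2.41 (SE 0.52, adjusted p = 0.121). DESeq2 called both genes, with adjusted p of 5.3e-04 for Dll4 and 2.0e-04 for Esm1, which made 2 of 34 members where it called 6.66% of all genes.

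Plvap in hSS1 was at 36.3, 39.9, 28, 46.3 and 32.5 CPM in the controls and at 24.4, 13.4, 27.2 and 26.3 CPM in the Pbrm1-fl tumors. The groups did not overlap, and the log2 difference was -0.68 (SE 0.24, adjusted p = 0.215 by edgeR). Icam2 was also lower in every Pbrm1-fl tumor, at 2.29 to 3.56 CPM in controls and 1.09 to 2.17 CPM in Pbrm1-fl tumors (-0.65, SE 0.29, adjusted p = 0.289). Angpt2 was at 13.5, 15, 7.3, 9.84 and 8.71 CPM in controls and at 13.8, 6.81, 23.8 and 20.9 CPM in Pbrm1-fl tumors, with 2 of the 4 above every control and 1 below (0.60, SE 0.38, adjusted p = 0.439).

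The remaining tip-cell, arterial and lymphatic genes of hSS1 overlapped between groups. Apln differed by -0.66 (SE 0.47), Sox17 by 0.11 (SE 0.45), Nos3 by -0.41 (SE 0.40), Prox1 by -0.76 (SE 0.37), Pdpn by -0.68 (SE 0.59) and Flt4 by -0.17 (SE 0.42), with adjusted p from 0.328 to 0.927 in the edgeR fit. Lyve1 fell under the low-count filter, at 0 to 0.734 CPM in controls and 0 to 0.585 CPM in Pbrm1-fl tumors. Kdr was at 42.5, 37.1, 34, 38.6 and 242 CPM in controls and 34.7, 31.5, 26.4 and 56.9 CPM in Pbrm1-fl tumors, so that its difference of -1.11 (SE 0.68) leaned on control 5. Pgf, from the VEGF list, was at 3.74, 11.3, 12.7, 2.55 and 10.2 CPM in controls and 0.487, 1.18, 1.68 and 1.78 CPM in Pbrm1-fl tumors, without overlap (-2.64, SE 0.61, adjusted p = 0.122). None of the other vessel genes passed.

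The difference between the 2 fusion backgrounds was tested as an interaction over all 46 tumors, as the effect of floxed Pbrm1 in hSS1 less its effect in hSS2. The loss of Pbrm1 itself was unequal. Its median was 99.5 CPM in hSS2 Pbrm1-fl tumors against 255 CPM in controls, and 220 CPM against 343 CPM in hSS1. The part of this unequal loss in the interaction was not tested. Plvap was the 1 gene of 35 that passed, against 2.86% of all genes (edgeR's quasi-likelihood test). Its log2 difference between Pbrm1-fl and control tumors was 0.82 in hSS2 and -0.68 in hSS1, and the interaction was -1.50 (SE 0.40, adjusted p = 0.0305). The call was lost, at adjusted p up to 0.0941, without hSS1 control replicate 1 or hSS1 Pbrm1-fl replicate 1 or 2, where the value was between -1.61 and -1.32. It was also lost without the low-count filter. With only the hSS2 controls of the same mouse number range, all hSS1 controls being kept, it was lost as well. With the number range as a term the value was -1.13 and the adjusted p 0.315 by edgeR.

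Esm1 (-2.98, SE 1.28, adjusted p = 0.19) and S1pr1 (-1.17, SE 0.52, adjusted p = 0.21) did not pass, and neither did Dll4 (-1.19, SE 0.63) or Angpt2 (-1.11, SE 0.77). The median interaction was -0.41 over the 35 genes, -1.15 over the tip-cell, -0.50 over the arterial and -0.19 over the lymphatic genes, beside 0.02 over all genes. Of 9 VEGF and angiopoietin genes Pgf passed (-4.60, SE 1.07, adjusted p = 0.0157), and none of the further arterial, tip-cell, venous, lymphatic, muscle capillary or pericyte genes did. The hSS1 and hSS2 tumors were deposited in separate count tables, and each Pbrm1-fl effect was taken within its own table.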

How the data were processed

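Tumor pieces had been fresh frozen, and rRNA-depleted stranded libraries were sequenced. The authors aligned the reads to the mouse genome (mm10) with STAR (version 2.7.11, per the labels' processing notes) and counted reads per gene with featureCounts (version 1.6.3), and the values deposited were raw whole-number counts per gene, in 1 table for the 37 hSS2 tumors and 1 for the 9 hSS1 tumors. The annotation release, strand setting and treatment of multimapping reads are not given in the sources used here. Gene symbols were matched by Ensembl identifier to GENCODE M21 (91.5% and 91.3% of identifiers matched).

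Counts were tested in R 4.3.3 with edgeR 4.0.16 (filterByExpr on group, TMM factors, robust quasi-likelihood F-tests, two-sided), adjusting by Benjamini-Hochberg over all genes that passed the filter and calling at 0.05. Of the 35 genes, 35 passed the filter in hSS2 and 34 in hSS1, where Lyve1 did not. The hSS2 groups shared 1 fit, the hSS1 groups another, and the interaction used the 46 libraries and the genes of both tables. Slopes were fitted within genotype groups on the log2 CPM (TMM scaled, prior count 2) of Cdh5 or Ttn. Printed levels are counts divided by the library total (CPM), and per kilobase of exon for RPKM. SE is the absolute log2 difference over the square root of F. The scripts were tested on simulated data. Alternatives were DESeq2 1.42.0, its size factors, no low-count filter, Ttn or the mouse number range as a term, and leaving out each tumor.

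Named genes were, in each comparison, the members past the threshold (up to 3 of smallest p where fewer than 3 passed), every tip-cell, arterial and lymphatic member, the called genes of other lists (up to 3 per list), and for slopes the 4 members of smallest p in each direction and the 5 leading genes of all. Exceptions chosen after their values were seen are the further slopes listed on Cdh5 and Ttn, Icam2 and Pgf in hSS1, and the Ttn boundary. The members and lists were chosen with earlier results of these data known. Replicates are separate tumors, each pair of which differed by more than counting noise. Replicate numbers follow accession order.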

Additional observations from a re-analysis of the deposited data

Results flagged for a closer look

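Each of the 35 genes was tested in genotype groups of 4 to 10 tumors for 1 tumor far from the others. Of 175 such tests 17 picked one out. Chance would give about 1 in 20 if the tests were independent. Genes of 1 tumor move together, so the count is not set against chance. In hSS2 Pbrm1-fl replicate 3, 9 of the genes were far below the other 7 tumors. Kdr was at 14.3 CPM (others 31.9 to 51.6), Tie1 at 11.2 (26.8 to 44.5), Sox7 at 1.49 (4.5 to 8.56) and Mmrn2 at 6.83 (18.6 to 22). Ecscr was at 1.55 CPM (3.44 to 6.16), Icam2 at 0.683 (1.57 to 3.13) and Nos3 at 2.92 (8.2 to 13.4). Prox1 was at 40.5 CPM (74.4 to 121) and Pdpn at 0.62 (8.06 to 51.5). Angpt2 in the same tumor was at 62.2 CPM.

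In hSS1 control replicate 5 Kdr was at 242 CPM (others 34 to 42.5), with Cdh5 at 76.9 CPM. Its neighbors on the chromosome, Kit, Pdgfra and Srd5a3, were at 29.3, 237 and 28.3 CPM, against 32.6 to 89.5, 115 to 372 and 20.3 to 28.2 CPM in the other hSS1 controls. Eng was at 117 CPM in hSS1 control replicate 4 (others 32.8 to 43.9) and Ecscr at 2.09 CPM in hSS1 control replicate 3 (4.13 to 5.26). In hSS2 Arid1a-fl replicate 1 Flt1 was at 56.1 CPM (97 to 156) and Fli1 at 19.7 CPM (45 to 77.2). In hSS1 Pbrm1-fl replicate 2 Plvap was at 13.4 CPM (24.4 to 27.2) and S1pr1 at 5.45 CPM (13 to 14.6). Aplnr was at 0.919 CPM in hSS2 Arid1b-fl replicate 2 (6.11 to 28.6).

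The effect of floxed Pbrm1 differed between hSS1 and hSS2 tumors by the interaction test of edgeR for Plvap, at -1.50, and for Pgf, at -4.60. Plvap was the only member called, and 2.86% of all genes were. Its call was lost with the mouse number range as a term, at -1.13 (adjusted p = 0.315 by edgeR), and without any of several single hSS1 tumors.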

How the results depend on the processing

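No paired analysis was possible because the labels give the groups no shared replicate numbers and name no litters; the range of mouse numbers was fitted as a term instead. With the mouse number range as a term, 0 members were called for hSS2 Pbrm1-fl against control, against Arid1a-fl and in the interaction. Of all genes, 477 of 20083, 436 of 20083 and 64 of 21725 were called there. With only the hSS2 controls of the same range, 0 members were called in the first and last of these, and the last kept all hSS1 controls. Of all genes, 446 of 20817 and 6 of 20357 were called in those 2 fits. Without a low-count filter 0 members were called in the interaction, where 402 of all 41165 genes were. DESeq2 called 2 members in hSS1, where it called 6.66% of all genes. The slope on Ttn in hSS2 called 9 members with Cdh5 as a term, 0 within tumors under 1000 CPM of Ttn and 1 within those over it (the last 2 chosen after seeing the data); by construction these last used fewer tumors, and the cause of the other changes was not tested. Leaving out 1 tumor at a time gave 1 to 2 members for hSS2 Pbrm1-fl against control, 0 to 2 against Arid1a-fl (2 without Arid1a-fl replicate 1, where Plvap was called) and against Arid1b-fl, 0 to 1 in the interaction, and 0 in the other comparisons. The slope on Cdh5 in hSS2 called 23 to 25 members under every alternative. Of all 20083 genes it called 3589 in the main fit and 268 with Ttn as a term.

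With Cdh5 as a term, 8 of the 12 other genes that fell with Ttn in hSS2 had slopes above 0, none past the threshold. Among the genes named by smallest p, 10 values reversed in sign, none past the threshold after it. With Ttn as a term the hSS2 slopes on Cdh5 were 0.479 for Lyve1, 0.053 for Erg, 0.120 for Fli1 and 0.139 for Flt1, and with Cdh5 as a term the slope of Tie1 on Ttn was 0.003. In hSS1, without the 2 tumors farthest in Ttn the slopes on Ttn were -0.135 for Ramp2 and 0.248 for Kdr, and the slopes on Cdh5 were 0.267 for Kdr and 0.215 for Fli1 with the range term and 0.118 for Prox1 without the 2 tumors farthest in Cdh5. Of the other values for single genes 760 kept their direction and side of the threshold, 29 lost and 7 gained the call. At 10137668 to 21294657 reads, counts limited Lyve1 most plainly, with no read in 10 libraries.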
